A study of Mus musculus with 23 samples.

Results

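The type I interferon response was followed through 34 named genes in the RNA of mouse tumors and of fibroblasts sorted from such tumors. The 34 genes were chosen by name, as a list of interferon-induced effectors and of the factors and sensors that drive their induction. Earlier results of these data were known when the list was chosen, so counts of its genes are descriptions and not independent evidence. Each was matched by its gene symbol and taken from the transcript of that symbol with the highest mean, and all 34 were found among the 24940 symbols of the tumor table and of the fibroblast table. The study compared syngeneic models, in which a mouse cancer cell line grows in an immunocompetent host of the same strain background. B16 (the melanoma line B16-F10), EO771 (the breast carcinoma line EO771.LMB), LL2 (LL/2, lung carcinoma), MC38 (colon carcinoma) and Pan02 (pancreatic ductal carcinoma) come from C57BL/6 mice. In every group 500000 cells of the line were placed under the skin of adult female C57BL/6 mice aged 10 to 15 weeks, in 1 or both flanks, with no further treatment and no genetic change of the host.

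Whole tumors gave 15 libraries, 3 per model, each from a fragment of 1 tumor. Cancer-associated fibroblasts (CAFs), sorted from the CD45-negative fraction of dissociated tumors by surface FAP, gave 8 libraries, a pair for each of the models EO771, LL2, MC38 and Pan02. B16 CAFs were not analysed here. The labels do not say which libraries came from separate mice, so the p-values measure only the spread between these tumors or sorts. Each model is 1 cell line, and the 3 tumors grouped as Pan02 carry another number in their titles and were grouped by their cell line label.

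Type I interferons are secreted proteins that bind a receptor of the chains Ifnar1 and Ifnar2. The kinases on that receptor activate Stat2, which joins Irf9 in a complex that binds the interferon-stimulated response element, a stretch of DNA in the promoters of many interferon-stimulated genes. Cells infected by viruses or carrying misplaced nucleic acid start this program, and in tumors it has been described in cancer cells, leukocytes and fibroblasts. Interferon gamma, made by T and NK cells, acts through another receptor, and it induces many of the same genes.

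Bases just upstream of 5 members are shown first, because interferon acts on its target genes through short letters in the promoter and members differ in whether they hold them. RefSeq promoter windows of build GRCm38.p6, from 250 bases before to 50 bases after an annotated start, were found for 25 of the 34 genes. The letters GAAA, any 2 bases and GAAA again, the core of the interferon-stimulated response element, were searched on both strands with overlapping matches allowed. They occurred in a window of 13 of those 25 genes (52.0%), before the start in 9 of them and only after it in 4. Of all 27025 genes with a window on a chromosome other than 18, 3.99% held them, and 3.44% of all 32851 windows did. For 5 members the 250 bases before the start are printed 5′ to 3′ along the gene, with the matched letters in capitals. These are Ifit1, Ifit2 and Ifit3, whose levels parted in CAFs, and Isg15 and Rsad2, among the members with the widest range between models.
Ifit1, chr19:34640639-34640888, plus strand: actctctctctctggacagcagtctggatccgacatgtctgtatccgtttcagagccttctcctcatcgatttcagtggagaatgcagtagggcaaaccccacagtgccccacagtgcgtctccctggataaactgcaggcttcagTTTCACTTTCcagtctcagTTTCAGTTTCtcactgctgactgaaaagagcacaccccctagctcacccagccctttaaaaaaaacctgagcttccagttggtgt
Ifit2, chr19:34550444-34550693, plus strand: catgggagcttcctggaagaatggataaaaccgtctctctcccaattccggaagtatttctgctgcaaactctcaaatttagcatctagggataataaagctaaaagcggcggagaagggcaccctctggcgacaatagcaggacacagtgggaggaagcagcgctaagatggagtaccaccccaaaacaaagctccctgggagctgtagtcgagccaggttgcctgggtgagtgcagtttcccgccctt
Ifit3, chr19:34583279-34583528, plus strand: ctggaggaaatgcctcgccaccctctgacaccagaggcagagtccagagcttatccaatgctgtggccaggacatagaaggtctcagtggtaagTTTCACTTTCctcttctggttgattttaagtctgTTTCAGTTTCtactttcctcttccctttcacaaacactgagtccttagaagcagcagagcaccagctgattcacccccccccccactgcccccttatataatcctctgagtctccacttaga
Isg15, chr4:156200819-156201068, minus strand: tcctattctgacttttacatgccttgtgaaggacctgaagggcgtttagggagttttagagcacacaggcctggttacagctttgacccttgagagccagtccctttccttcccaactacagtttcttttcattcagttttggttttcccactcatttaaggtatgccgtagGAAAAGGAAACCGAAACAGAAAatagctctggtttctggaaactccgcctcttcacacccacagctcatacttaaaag
Rsad2, chr12:26456453-26456702, minus strand: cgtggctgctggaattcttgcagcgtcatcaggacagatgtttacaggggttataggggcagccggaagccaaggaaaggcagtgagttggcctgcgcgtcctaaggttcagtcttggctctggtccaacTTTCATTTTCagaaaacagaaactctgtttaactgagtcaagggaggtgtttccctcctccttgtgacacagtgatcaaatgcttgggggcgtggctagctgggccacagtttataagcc
Ifit1 and Ifit3 each held 2 matches, Rsad2 held 1 and Isg15 held 3 that overlapped one another. For Ifit2 the letters were absent from this window and from that of its other annotated start. They were absent from the windows of 12 members in all, among them Oasl1, Oasl2, Cmpk2, Ifi44, Xaf1 and Irf7. A match or its absence describes the letters in a window and was not tested for binding.

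The tumor libraries held between 10035173 and 21946486 counts over genes. The 8 CAF libraries were deposited as RPKM (reads scaled to transcript length and library size), and their low values fell on steps that gave library sizes of 9268121 to 22839962 reads. LL2 tumor 3 and, to a smaller extent, Pan02 tumor 2 stood apart from the other tumors of their models for the members, as given after the single genes. The sorted libraries were checked against marker genes of other cells. Ptprc, which encodes CD45, was between 0.007 and 0.947 RPKM in all 8, while Col1a1 was between 467 and 3773 RPKM. The summed RPKM of 10 leukocyte genes was 71.6 to 84.6 in EO771 CAFs and at most 34.1 elsewhere. Of the 9 genes tested 9 were higher in EO771, against 8.05% of all genes. The sum of 8 macrophage genes was 150 to 193 in EO771 CAFs and at most 23.9 elsewhere. The sum of 7 epithelial genes was 840.5 to 1125 in Pan02 CAFs, 494 to 501 in EO771, 206 to 211 in LL2 and 1.99 to 4.43 in MC38. RNA restricted to 1 model was also present. There were 6 genes at 10 CPM or more in every MC38 tumor and under 0.5 CPM in every other tumor, and their summed RPKM in MC38 CAFs was 58.9% and 62.4% of that in MC38 tumors, against at most 0.243% in the other CAF libraries. The 8 genes restricted in the same way to Pan02 tumors, among them Pdx1, reached 67.8% and 87.6% in Pan02 CAFs and at most 1.06% in the others. No gene met that rule for EO771 or LL2, so RNA restricted to those tumors could not be followed in this way. The share of each CAF library that came from cells other than fibroblasts was not tested.

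Whole tumors were compared first, to ask how far the models differ in this response. MC38 tumors held the highest mean level of 33 of the 34 genes, and the gene that was not led by MC38, Herc6, was at 84.3 CPM in B16 and 82.1 CPM in MC38. EO771 tumors held the lowest mean of 20 genes, Pan02 of 10 and B16 of 4. B16 tumors were second highest for 24 genes. In bulk tumors a smaller number of cells of a type and less RNA per cell cannot be told apart. CPM are counts scaled to a common library size after TMM normalization, and each model was compared with the mean of the other 4 by edgeR's quasi-likelihood test. A gene counted as higher or lower where its log2 fold change was 1 or more, or -1 or less, with the Benjamini-Hochberg adjusted p below 0.05.

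All 34 passed the filter on low values, and for all 34 the test over the 5 models gave an adjusted p below 0.05, as it did for 91.1% of the 15722 genes tested. In MC38 tumors 30 of the 34 were higher, against 11.2% of all genes. The median log2 fold change of the 34 was 1.88 in MC38, where that of all genes was 0.00, and the values ran from 0.60 to 3.74. The 4 genes short of a log2 fold change of 1 were Irf9 (0.90), Ifit2 (0.73), Eif2ak2 (0.60) and Ifitm3 (0.95), and each had an adjusted p under 0.05, a rule that 27.0% of all genes met upward in MC38. For 25 of the 34 every MC38 tumor lay above all 12 tumors of the other models, which held for 7.68% of all genes. Against total-count scaling, TMM shifted all MC38 log2 fold changes by -0.14, a shift smaller than each of these fold changes.

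In EO771 tumors 21 members were lower, against 13.7% of all genes, with a median of -1.24, and the number was 13 without EO771 tumor 2 and 12 without EO771 tumor 3. In Pan02 tumors 11 were lower, against 7.93%, with a median of -0.52, and 6 without Pan02 tumor 1. B16 tumors had 6 members higher, against 13.1% of all genes, and 3 lower, against 19.6%. In LL2 tumors 2 members, Rsad2 and Zbp1, were lower, against 8.29%, and 21 were lower without LL2 tumor 3. In B16 the lowest log2 fold changes were those of Isg20 and Oas3 and the highest those of Cmpk2 and Rsad2, which were the lowest in Pan02. The plot of all members by tumor shows the 3 MC38 tumors apart from the other 12.

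**Figure D1:**
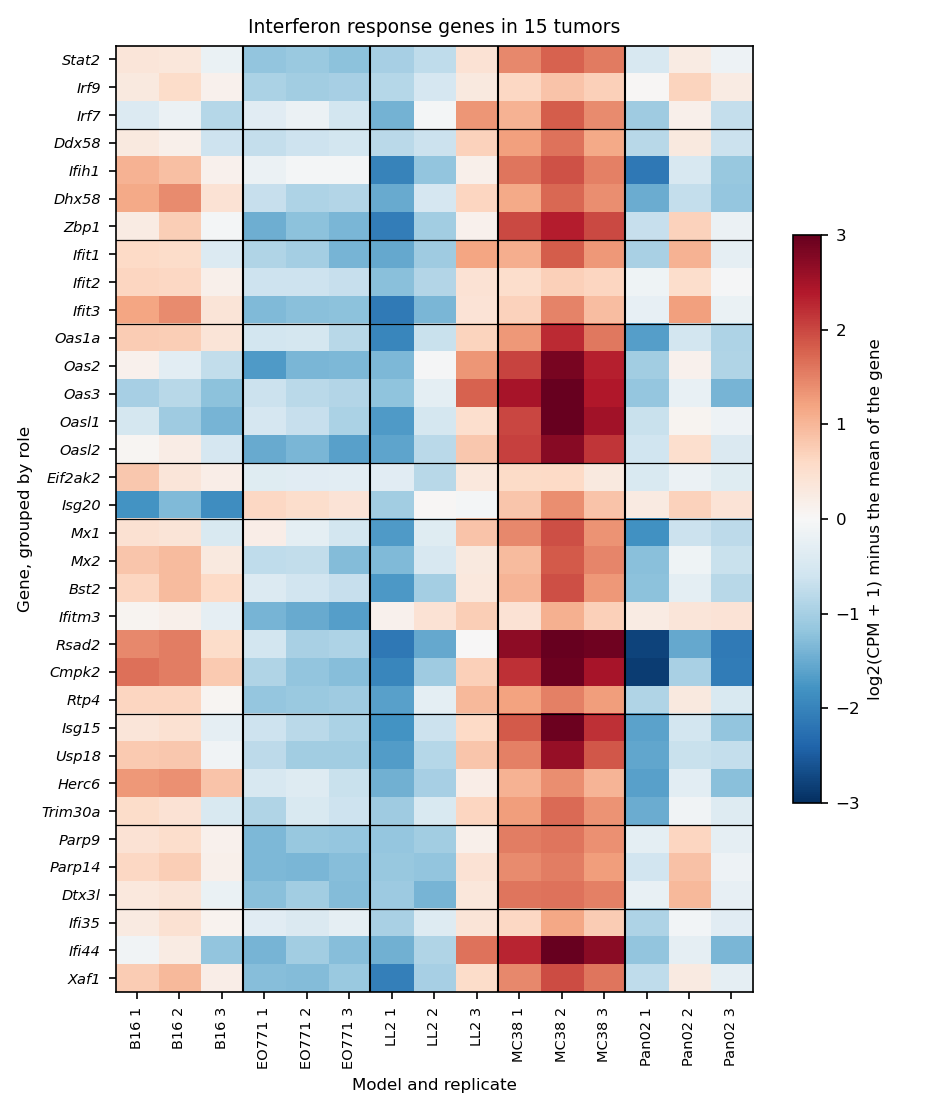
Heat map of the 34 genes (rows, in role groups parted by lines) in the 15 tumors (columns, 3 per model), as log2(CPM + 1) minus the mean of the gene over all tumors, with colours capped at 3 either way. MC38 columns are red in nearly every row, EO771 columns mostly blue, and LL2 tumor 3 is redder than the other 2 LL2 tumors in 33 of 34 rows.

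Among the signalling and transcription factors, Stat2, a subunit of the complex that interferon activates, was 82.3, 80.3 and 54.8 CPM in the B16 tumors, 27.5, 28.7 and 26.3 in EO771, 31.6, 37.03 and 86.2 in LL2, 173, 218 and 189 in MC38 and 45.3, 75.2 and 56.9 in Pan02. The MC38 tumors were above all others and the EO771 tumors below all others. Its log2 fold change was 1.96 ± 0.22 (SE, adjusted p = 7.6e-06) in MC38 and -1.55 ± 0.28 (SE, adjusted p = 0.00035) in EO771. Irf9, the DNA-binding subunit, was 55.6, 66.7 and 49.3 CPM in the B16 tumors, 22.7, 21.3 and 22.05 in EO771, 24.3, 31.5 and 55.4 in LL2, 69.9, 82.6 and 74.2 in MC38 and 46.5, 71.7 and 53.5 in Pan02. EO771 again lay below every other tumor, at -1.32 ± 0.21 (SE, adjusted p = 0.00017), while the MC38 tumors overlapped Pan02 tumor 2. Irf7, the factor that drives further interferon gene transcription, was 69.3, 80.9 and 49.9 CPM in the B16 tumors, 71.97, 80.6 and 62.8 in EO771, 33.7, 88.7 and 231 in LL2, 191, 324 and 248 in MC38 and 43.2, 102 and 55.6 in Pan02. It was higher in MC38 by 1.70 ± 0.36 (SE, adjusted p = 0.0015), although LL2 tumor 3 lay within the MC38 range.

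The nucleic acid sensors were higher in MC38 as a group, 4 of 4. Zbp1, a sensor of left-handed nucleic acid that can start cell death, was 72.3, 101 and 58.02 CPM in the B16 tumors, 21.4, 25.05 and 22.8 in EO771, 13.5, 28.9 and 65.9 in LL2, 243, 314 and 240.2 in MC38 and 36.7, 97.8 and 52.9 in Pan02. The MC38 mean was 3.45 times that of B16, the next model, and the log2 fold change was 2.57 ± 0.31 (SE, adjusted p = 1.5e-05) in MC38 and -1.84 ± 0.41 (SE, adjusted p = 0.0019) in EO771. Ifih1 (MDA5), which binds long double-stranded RNA, was 55.01, 50.2 and 28.7 CPM in the B16 tumors, 23.1, 25.05 and 25.4 in EO771, 5.84, 11.1 and 29.3 in LL2, 81.6, 101 and 77.5 in MC38 and 5.18, 18.5 and 11.5 in Pan02. It was high in MC38, at 2.05 ± 0.34 (SE, adjusted p = 0.00023), and low in Pan02, at -1.58 ± 0.43 (SE, adjusted p = 0.0065), with the EO771 tumors between the ranges of both. Dhx58 (LGP2), which tunes the other RNA helicases, was 69.9, 85.6 and 42.6 CPM in the B16 tumors, 19.1, 15.96 and 16.5 in EO771, 10.3, 21.8 and 49.6 in LL2, 69.8, 105 and 83.9 in MC38 and 10.6, 18.8 and 13.5 in Pan02. It was higher in both B16, at 1.26 ± 0.31 (SE, adjusted p = 0.0029), and MC38, at 1.74 ± 0.30 (SE, adjusted p = 0.00031), and these 2 models overlapped. Its call in EO771 (-1.16) fell short of the fold threshold without LL2 tumor 3, at -0.97, and missed the adjusted p without EO771 tumor 2 or 3. Ddx58 (RIG-I), which binds RNA with a free 5′ triphosphate, was between 27.7 and 155 CPM and was higher in MC38 by 1.62 on the log2 scale.

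The Ifit proteins bind viral RNA and block its translation. Ifit3 was 94.4, 112 and 53.7 CPM in the B16 tumors, 15.7, 16.7 and 16.99 in EO771, 8.63, 15.3 and 54.8 in LL2, 67.2, 118 and 79.3 in MC38 and 34.7, 97.3 and 35.4 in Pan02, so that B16 and MC38 overlapped at the top and EO771 tumors lay close together near the bottom. Its log2 fold change was -1.81 ± 0.51 (SE, adjusted p = 0.0089) in EO771. In MC38 it was 1.21 ± 0.41 (SE, adjusted p = 0.024) and in B16 1.18 ± 0.41 (SE, adjusted p = 0.022), but the MC38 call was lost without MC38 tumor 2 (0.95, adjusted p = 0.14) and the B16 call without B16 tumor 1 or 2 (adjusted p = 0.074 and 0.12). Ifit1 was 45.97, 44.7 and 22.5 CPM in the B16 tumors, 15.7, 14.4 and 10.98 in EO771, 9.78, 13.9 and 69.8 in LL2, 65.99, 109.6 and 76.1 in MC38 and 14.9, 63.02 and 25.2 in Pan02. LL2 tumor 3 lay within the MC38 range and Pan02 tumor 2 just below it, and the MC38 value of 1.62 ± 0.46 (SE, adjusted p = 0.009) missed the adjusted p without MC38 tumor 2, at 1.38 (adjusted p = 0.059). Ifit2, with the smallest MC38 value of the 3, was 80.9 to 92.6 CPM in MC38 and 62.9 to 88.3 in B16. Reads of Ifit3 and its near copy Ifit3b could be split by the counting, so the level of Ifit3 is uncertain.

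The OAS family was the role group with the largest MC38 median, 3.02, and 5 of 5 were higher there. These enzymes make short 2′-5′ linked chains of adenosine that activate RNase L, an enzyme that cuts RNA. Oas3 was 13.8, 15.4 and 11.5 CPM in the B16 tumors, 17.8, 15.7 and 14.99 in EO771, 11.8, 23.1 and 99.04 in LL2, 164, 244 and 153 in MC38 and 12.1, 24.2 and 10.1 in Pan02. The MC38 mean was 4.19 times that of LL2, where tumor 3 was far above the other 2 tumors, and the log2 fold change was 3.25 ± 0.38 (SE, adjusted p = 1.3e-05). Oasl1, an OAS-like protein without enzyme activity that restrains Irf7 synthesis, was 19.9, 13.6 and 10.6 CPM in the B16 tumors, 20.4, 17.8 and 14.7 in EO771, 8.29, 20.2 and 41.9 in LL2, 120.1, 252 and 173 in MC38 and 17.98, 31.3 and 26.5 in Pan02. The next highest model reached 25.3 CPM on average, and the MC38 value was 3.20 ± 0.30 (SE, adjusted p = 1.9e-06). Oas2 was 20.5, 14.8 and 10.7 CPM in the B16 tumors, 5.03, 6.62 and 6.71 in EO771, 6.73, 18.05 and 47.9 in LL2, 79.3, 140.2 and 97.2 in MC38 and 8.45, 20.4 and 9.54 in Pan02. It was higher in MC38 by 3.02 ± 0.36 (SE, adjusted p = 1.5e-05) and was lower in EO771, at -2.12 ± 0.50 (SE, adjusted p = 0.003), where every tumor lay below those of the other models. Oasl2 (2.82) and Oas1a (2.13) were also higher in MC38, and Oas1a shares near-identical stretches with Oas1g, so its count is uncertain. Oas3 and Oasl1 were lower in B16, at -1.49 and -1.35, calls that missed the adjusted p without B16 tumor 3 (adjusted p = 0.078 and 0.052), as that of Oas3 did without B16 tumor 1 (adjusted p = 0.059), while Oas1a stood at 0.69.

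Isg20 and Eif2ak2 also act on RNA. Isg20, an exonuclease, was 8.55, 12.1 and 8.03 CPM in the B16 tumors, 49.8, 46.8 and 42.6 in EO771, 15.02, 32.7 and 30.7 in LL2, 57.7, 85.3 and 58.7 in MC38 and 38.9, 52.1 and 42.9 in Pan02. Every B16 tumor lay below every other tumor, as 12.2% of all genes did, and every MC38 tumor lay above. The log2 fold change was -2.19 ± 0.24 (SE, adjusted p = 3.4e-06) in B16 and 1.33 ± 0.19 (SE, adjusted p = 5.8e-05) in MC38, and Isg20 was the member least like the rest across the 15 tumors (r = 0.22 with the mean log2 level of the other 33, a description of libraries that share depth and cell makeup between genes). With the B16 tumors left out the MC38 value was 0.83, short of the fold threshold. Eif2ak2 (PKR), a kinase that stops translation when it binds double-stranded RNA, ran from 31.8 to 102 CPM, the narrowest fold range between model means of the 34, and was not called in any model.

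The membrane-associated and dynamin-like effectors held the largest change of all. Rsad2 (viperin), which converts a nucleotide into a chain terminator for viral polymerases, was 158, 170.0 and 84.6 CPM in the B16 tumors, 38.8, 28.8 and 29.98 in EO771, 12.4, 19.1 and 58.2 in LL2, 377, 637 and 441 in MC38 and 7.57, 19.1 and 12.5 in Pan02. The model means spanned a factor of 37.2 from Pan02 to MC38, and no MC38 tumor overlapped another model. The log2 fold change was 3.74 ± 0.32 (SE, adjusted p = 8.8e-07) in MC38, -2.79 ± 0.46 (SE, adjusted p = 0.00016) in Pan02 and 1.46 ± 0.34 (SE, adjusted p = 0.0022) in B16. Cmpk2, a nucleotide kinase whose gene lies beside Rsad2 on chromosome 12, was 111, 101 and 60.1 CPM in the B16 tumors, 18.01, 14.6 and 13.5 in EO771, 8.15, 15.9 and 57.4 in LL2, 162, 269 and 196 in MC38 and 3.91, 16.9 and 7.32 in Pan02. It kept the same order of models at the top and bottom, with 3.10 ± 0.40 (SE, adjusted p = 2.7e-05) in MC38 and -2.51 ± 0.56 (SE, adjusted p = 0.0016) in Pan02. Mx2, a dynamin-like GTPase, was low throughout, at 6.78, 7.46 and 4.39 CPM in the B16 tumors, 1.59, 1.61 and 0.784 in EO771, 0.747, 2.14 and 4.38 in LL2, 7.51, 14.7 and 11.1 in MC38 and 0.831, 2.97 and 1.74 in Pan02. Its tumor counts came from a non-coding RefSeq entry of the gene and its CAF values from a protein-coding one. Mx2 was higher in MC38 by 2.17 ± 0.37 (SE, adjusted p = 0.0003) and lower in EO771, at -1.63 ± 0.50 (SE, adjusted p = 0.014). The EO771 call was lost without EO771 tumor 3 (adjusted p = 0.072), and its B16 value of 1.12 missed the adjusted p without B16 tumor 1 or 2 (adjusted p = 0.082 and 0.11).

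Of the other 4 genes in that group, Bst2 (tetherin), which holds budding viruses at the cell surface, ran from 94.8 to 1202 CPM and was higher in MC38 by 1.74 on the log2 scale. Rtp4, a chaperone of membrane receptors, was higher by 1.58. Mx1, counted on a protein-coding RefSeq entry, was higher by 2.01. Ifitm3, which blocks entry of viruses through endosomes, was 504, 533 and 396 CPM in the B16 tumors, 181, 168 and 151 in EO771, 524, 649 and 799 in LL2, 649.7, 1009.6 and 784 in MC38 and 566, 619 and 639 in Pan02. It was distinguished by EO771, whose 3 tumors lay below all others, at -1.91 ± 0.16 (SE, adjusted p = 5.5e-07), rather than by MC38.

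**Figure D2:**
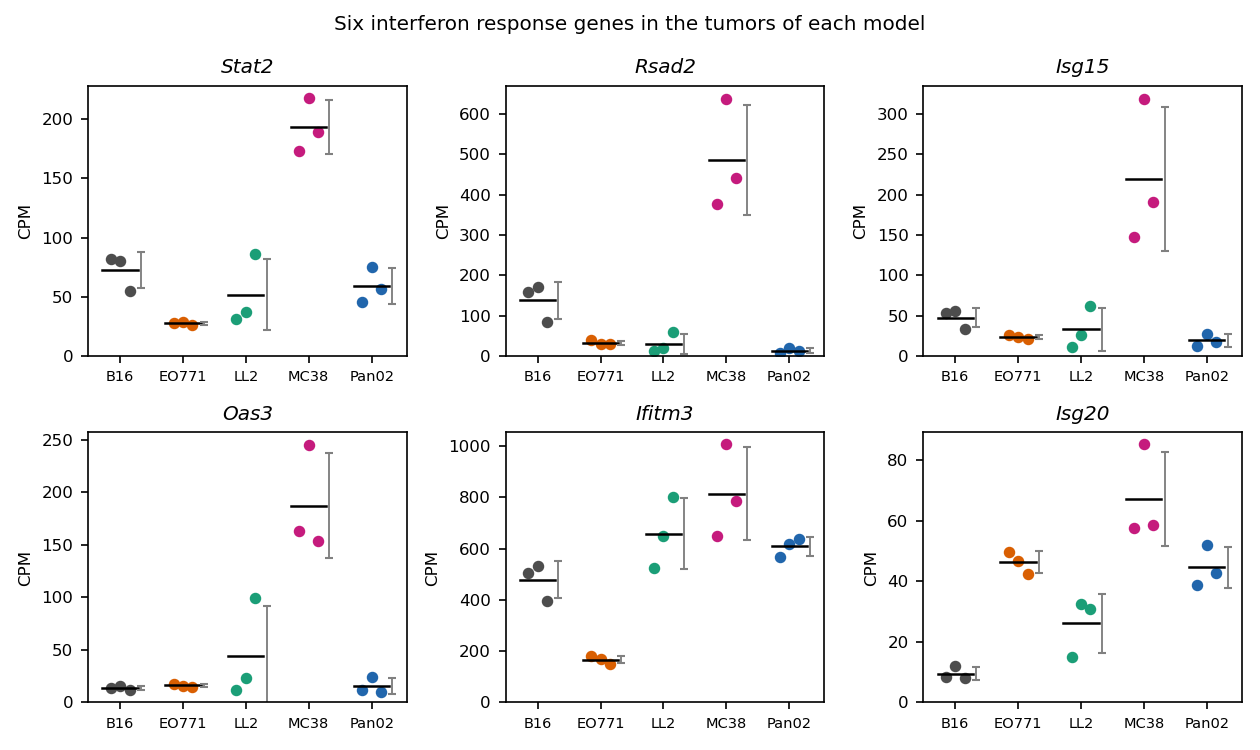
CPM (linear axes from 0) of 6 members in the tumors of each model, with points for single tumors, a black line for the mean of 3 tumors and a grey bar for ± 1 SD. MC38 points stand above the other models for Stat2, Rsad2, Isg15 and Oas3, EO771 points stand below for Ifitm3, and B16 points stand below for Isg20.

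Isg15, Usp18 and Herc6 serve the attachment and removal of a ubiquitin-like protein and were grouped with Trim30a, a member of the TRIM ligase family, and 4 of the 4 were higher in MC38. Isg15, that protein, was 53.04, 55.8 and 33.6 CPM in the B16 tumors, 26.2, 22.9 and 20.7 in EO771, 11.01, 25.8 and 62.4 in LL2, 148, 319 and 190.3 in MC38 and 12.7, 27.5 and 17.5 in Pan02. All MC38 tumors were above the others, with a mean 4.61 times that of B16 and a log2 fold change of 2.92 ± 0.33 (SE, adjusted p = 8.4e-06). In Pan02 it was lower, at -1.48 ± 0.43 (SE, adjusted p = 0.0085). Usp18, which removes Isg15 and also holds back signalling at the interferon receptor, was 41.3, 42.2 and 22.001 CPM in the B16 tumors, 13.3, 10.95 and 10.9 in EO771, 6.73, 12.6 and 42.6 in LL2, 69.1, 149 and 89.1 in MC38 and 7.28, 14.4 and 14.05 in Pan02. The MC38 value was 2.52 ± 0.36 (SE, adjusted p = 6.7e-05), and LL2 tumor 3 was level with the higher B16 tumors. Trim30a, which restrains signalling from Toll-like receptors, was 49.2, 45.1 and 23.996 CPM in the B16 tumors, 17.4, 24.1 and 21.2 in EO771, 15.4, 24.1 and 52.7 in LL2, 80.9, 110.1 and 86.4 in MC38 and 11.3, 30.6 and 25.2 in Pan02, and MC38 lay above the rest at 1.76 ± 0.30 (SE, adjusted p = 0.00028). Herc6, the ligase that attaches Isg15 in mice, was higher in B16 by 1.45 ± 0.28 (SE, adjusted p = 0.00051) and in MC38 by 1.40 ± 0.28 (SE, adjusted p = 0.00096) and was lower in Pan02, at -1.32 ± 0.34 (SE, adjusted p = 0.0043). Of the exon bases of Herc6, 26.6% are shared with another annotated gene on the same strand, so its reads cannot be told apart there.

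Parp9 and Dtx3l form a complex that marks histones and viral proteins, and Parp14 is an ADP-ribosyltransferase beside them in the genome. Parp9 and Dtx3l share 367 exon bases on opposite strands, 10.3% and 6.4% of their exon bases. The libraries do not record strand, so reads there cannot be told apart. Dtx3l was 82.2, 86.6 and 58.02 CPM in the B16 tumors, 27.3, 31.8 and 26.5 in EO771, 30.4, 24.6 and 83.6 in LL2, 203, 208 and 189.9 in MC38 and 56.6, 130.5 and 55.8 in Pan02. Parp9 was 86.7, 93.5 and 69.9 CPM in the B16 tumors, 24.8, 28.4 and 28.3 in EO771, 27.996, 30.9 and 71.6 in LL2, 187, 196 and 167 in MC38 and 52.6, 101 and 53.4 in Pan02. Parp14 was 119, 128 and 84.9 CPM in the B16 tumors, 29.3, 29.04 and 30.8 in EO771, 34.3, 33.1 and 103 in LL2, 206, 223 and 185 in MC38 and 50.5, 141 and 68.6 in Pan02. In each the MC38 tumors lay above all others, and the log2 fold changes there were 1.91 ± 0.28 (SE, adjusted p = 9.3e-05), 1.85 ± 0.22 (SE, adjusted p = 1.7e-05) and 1.69 ± 0.29 (SE, adjusted p = 0.00032). In EO771 all 3 were lower, at -1.61, -1.60 and -1.79. Pan02 tumors, low in Rsad2 and Cmpk2, had values of 0.28, 0.08 and 0.14 for these genes.

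Of the remaining induced genes, Ifi44 was 14.2, 18.5 and 6.24 CPM in the B16 tumors, 5.30, 6.96 and 5.84 in EO771, 5.03, 7.82 and 49.5 in LL2, 79.3, 162 and 106 in MC38 and 6.25, 12.7 and 5.34 in Pan02. MC38 stood 5.57 times above LL2, the next mean, at 3.44 ± 0.45 (SE, adjusted p = 3.4e-05). Xaf1, a partner of an inhibitor of apoptosis, was 37.4, 43.6 and 25.3 CPM in the B16 tumors, 8.37, 8.32 and 9.59 in EO771, 4.48, 10.4 and 32.6 in LL2, 61.04, 88.1 and 69.01 in MC38 and 12.5, 26.4 and 18.01 in Pan02, with 2.06 ± 0.35 (SE, adjusted p = 0.00027) in MC38 and -1.76 ± 0.46 (SE, adjusted p = 0.0053) in EO771. Ifi35 was 67.4, 76.8 and 60.5 CPM in the B16 tumors, 44.01, 41.01 and 46.01 in EO771, 27.996, 42.2 and 73.2 in LL2, 86.4, 126 and 95.8 in MC38 and 28.7, 52.6 and 44.2 in Pan02. Its MC38 tumors lay above the rest by a small margin, at 1.06 ± 0.21 (SE, adjusted p = 0.001), and the value fell to 0.88 without MC38 tumor 2 and 0.96 without LL2 tumor 1.

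The members also moved together between tumors of the same model. In LL2, tumor 3 was the highest of the 3 tumors for 33 of 34 genes, with a median ratio of 3.14 to the mean of the other 2 tumors, where the median over all tested genes was 1.00. Without LL2 tumor 3 the number of members called lower in LL2 went from 2 to 21. In Pan02, tumor 2 was highest for 33 genes with a median ratio of 1.90, in MC38 tumor 2 was highest for 34 with 1.44, and in B16 tumor 3 was lowest for 34 with 0.650. EO771 tumors differed least, with median ratios of 0.917 to 1.02. After the mean of each model was removed, the correlation of each member with the mean of the other 33 over the 15 tumors ran from 0.67 to 0.99 with a median of 0.96.

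Leukocyte genes moved with LL2 tumor 3. The summed CPM of the 10 leukocyte genes was 924, 1290.1 and 1962 in LL2 tumors 1 to 3, and that of 8 T and NK cell genes was 12.2, 28.9 and 103. Pan02 tumor 2 had the highest T and NK cell sum of its model, 114, against 21.6 and 56.6, while its leukocyte sum of 1687 lay between those of 789 and 2127. The leukocyte sum was 361 to 591 in B16, 1048 to 1092 in EO771 and 971 to 1451 in MC38, and the T and NK cell sum was 39.1 to 97.7, 20.5 to 35.3 and 112 to 119.7. MC38 tumor 2, highest of its model for 34 members, had the lowest leukocyte sum there, 971 against 1189 and 1451. Its T and NK cell sum was 119, against 112 and 119.7. B16 tumor 3, lowest of its model for 34 members, had a leukocyte sum of 510, between 361 and 591. In MC38, 2 of 8 T and NK cell genes were higher, against 11.2% of all genes. In B16, 10 of 10 leukocyte genes were lower, against 19.6%. The part of leukocytes in the levels of the members was not tested.

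The wider pathway was read from lists of other genes, which were also chosen with earlier results of these data known. The 18 type I interferon genes summed to 6, 11 and 3.5 counts in MC38 tumors 1 to 3. Every other tumor held 0 to 3 counts. Of the 11 counts in MC38 tumor 2, 9 were of Ifnb1. No single ligand gene reached the level needed for a test, and the sums were not tested. Whether the ligands differed between models was therefore not tested at this depth. Of 36 other interferon-stimulated genes 25 were higher in MC38, against 11.2% of all genes, and 17 were lower in EO771, against 13.7%. The furthest were Ifitm1 (-3.42 in EO771), Ddx60 (2.85 in MC38), Oas1b (-2.77 in EO771) and Phf11d (2.53 in MC38). Of 14 genes that induce interferon, Mb21d1 (cGAS), a sensor of DNA, was higher in MC38 by 2.28 ± 0.15 (SE, adjusted p = 1.1e-07) and lower in LL2, at -2.52 ± 0.21 (SE, adjusted p = 9.7e-07). In the same list Tlr3 was lower in EO771 (-2.20) and LL2 (-1.19) and higher in B16 (1.87) and MC38 (1.81). Tmem173 (STING) was lower in EO771 (-1.80), and Tlr7 was lower in B16 (-1.50). Of the 14 genes, 3 (Mb21d1, Tlr3 and Tlr9) were higher in MC38, against 11.2% of all genes. Of 7 negative regulators, Socs3 and Socs1 were lower in B16, at -2.05 and -1.76, and Samhd1 was lower in EO771 (-1.04).

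A list of 9 genes held Ifng, which encodes interferon gamma, its receptor genes and genes taken here as its targets. Of them 6 (Ifng, Irf1, Cxcl9, Cxcl10, Gbp2 and Nlrc5) were higher in MC38, against 11.2% of all genes. In EO771 5 (Ifng, Irf1, Cxcl10, Gbp2 and Nlrc5) were lower, against 13.7%. Cxcl10, a chemokine that draws T cells, was 64.04, 81.7 and 84.6 CPM in the B16 tumors, 25.7, 22.5 and 25.3 in EO771, 10.6, 26.5 and 103 in LL2, 502, 672 and 524 in MC38 and 12.9, 52.9 and 22.3 in Pan02, and its MC38 log2 fold change of 3.82 ± 0.41 (SE, adjusted p = 6.1e-06) exceeded that of every member. Gbp2 and Irf1 were lower in EO771, at -2.62 and -2.09. Ifng itself was 0.982, 2.36 and 1.05 CPM in the B16 tumors, 0.265, 0.0849 and 0.436 in EO771, 0.0680, 0.156 and 0.939 in LL2, 2.98, 2.93 and 3.83 in MC38 and 0.733, 2.90 and 0.840 in Pan02, with 2.23 ± 0.49 (SE, adjusted p = 0.0019) in MC38 and -2.27 ± 0.74 (SE, adjusted p = 0.019) in EO771. In Pan02 Gbp2 was higher by 1.49 ± 0.48 (SE, adjusted p = 0.015) and Ciita by 1.48 ± 0.48 (SE, adjusted p = 0.017), while 11 of the 34 members were lower. The share of each type of interferon in the levels of the members was not tested.

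CAF libraries were compared next, to ask whether sorted fibroblasts of the same models differ in the same genes. MC38 CAFs held the highest mean of 32 of the 34 members, and the exceptions were Ifit2, highest in Pan02, and Isg20, at 38.7 RPKM in EO771 and 37.3 in MC38. LL2 CAFs held the lowest mean of 22, and EO771 CAFs of 11. RPKM were tested as log2(RPKM + 1) with limma, in which a model was set against the mean of the 3 others under the same call rule. The scale understates the change of low genes.

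All 34 passed the filter of 1 RPKM in 2 libraries. Of these, 33 differed among the 4 models, as did 80.4% of the 13598 genes tested, and Ifitm3 had an adjusted p of 0.058. In MC38 CAFs 30 were higher, against 10.9% of all genes, with a median log2 fold change of 2.5 for the 34. For 30 members both MC38 libraries lay above the other 6, as 20.3% of all genes did. In LL2 CAFs 24 were lower, against 5.13%, and for 18 both LL2 libraries lay below the other 6, against 7.79%. EO771 CAFs had 10 lower, against 7.06%, and Pan02 CAFs had 8 lower, against 8.41%, and 2 higher, against 9.73%. The medians of the 34 were -1.30 in LL2, -0.80 in EO771 and -0.28 in Pan02. The plot of CAF libraries shows the MC38 columns apart from the rest except in the rows of Ifit2, Isg20, Ifitm3 and Dtx3l.

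**Figure D3:**
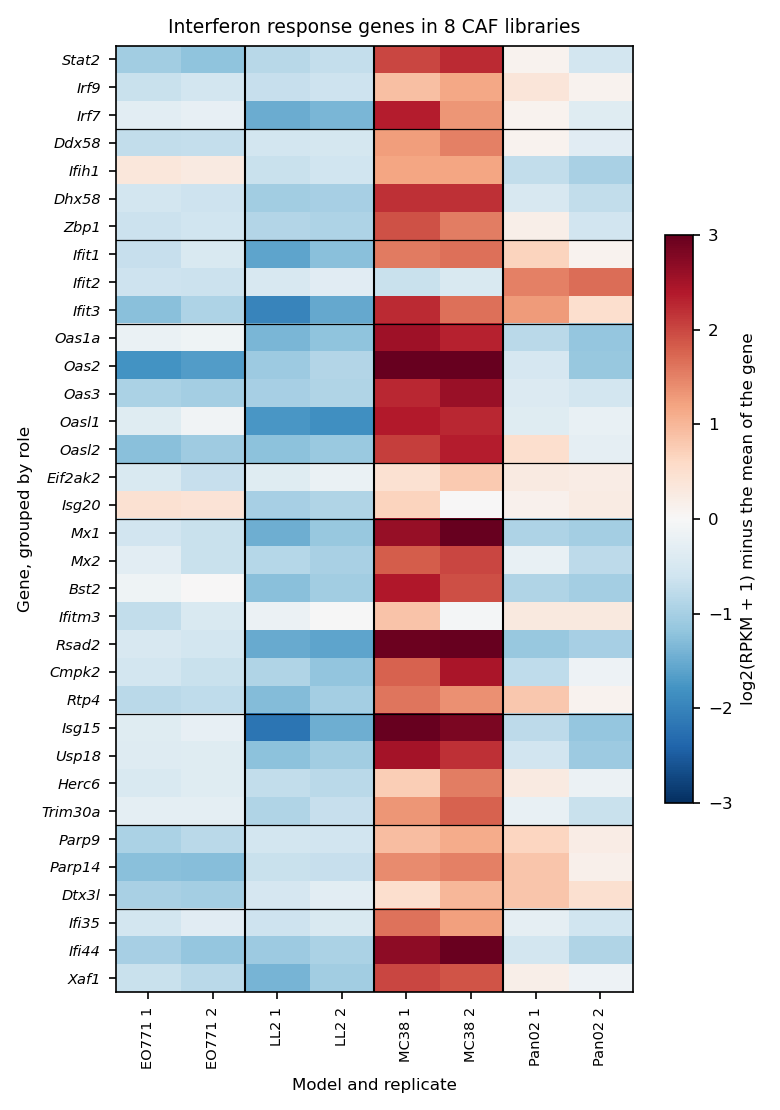
Heat map of the 34 genes (rows, in role groups parted by lines) in the 8 CAF libraries (columns, 2 per model), as log2(RPKM + 1) minus the mean of the gene over all libraries, with colours capped at 3 either way. Both MC38 columns are red in most rows, and the row of Ifit2 is red in Pan02 alone.

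In the signalling group, Stat2 was 9.91 and 8.83 RPKM in the EO771 CAFs, 11.6 and 12.9 in LL2, 89.7 and 106 in MC38 and 23.4 and 14.5 in Pan02. The MC38 mean was 5.18 times that of Pan02, at 2.83 ± 0.18 (SE, adjusted p = 3.2e-05). Irf7 was 25.5 and 26.9 RPKM in the EO771 CAFs, 10.7 and 11.8 in LL2, 168 and 81.03 in MC38 and 34.2 and 24.3 in Pan02. The MC38 libraries were unlike each other but above the other 6, and the log2 fold change was 2.45 ± 0.26 (SE, adjusted p = 0.00021) in MC38 and -1.90 ± 0.26 (SE, adjusted p = 0.0016) in LL2. Irf9 was 10.2 and 11.3 RPKM in the EO771 CAFs, 10.1 and 10.7 in LL2, 32.4 and 39.2 in MC38 and 21.98 and 18.4 in Pan02, the smallest MC38 change of the 3 at 1.38 ± 0.12 (SE, adjusted p = 0.0001). All 4 sensors were higher in MC38. Dhx58 was 5.34 and 5.06 RPKM in the EO771 CAFs, 3.54 and 3.69 in LL2, 41.7 and 41.8 in MC38 and 5.68 and 4.57 in Pan02, and its MC38 value was 2.94 ± 0.11 (SE, adjusted p = 6.2e-06). Zbp1 was 25.3 and 26.2 RPKM in the EO771 CAFs, 21.3 and 20.8 in LL2, 154 and 119 in MC38 and 45.2 and 26.7 in Pan02, at 2.31 ± 0.20 (SE, adjusted p = 9.0e-05). Ddx58 was 6.09 and 6.22 RPKM in the EO771 CAFs, 7.19 and 7.29 in LL2, 27.4 and 32.9 in MC38 and 11.9 and 8.36 in Pan02, at 1.84 ± 0.14 (SE, adjusted p = 6.3e-05), and Ifih1, the least expressed sensor, at 1.58. In each the MC38 libraries stood clear of the other 6.

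The Ifit family divided in CAFs. Ifit3 was 4.94 and 6.45 RPKM in the EO771 CAFs, 2.59 and 3.85 in LL2, 65.5 and 43.2 in MC38 and 33.3 and 18.95 in Pan02. Its log2 fold change was 2.59 ± 0.25 (SE, adjusted p = 0.00015) in MC38 and 1.19 ± 0.25 (SE, adjusted p = 0.0062) in Pan02, and the Pan02 call was lost without Pan02 CAF 1 (0.80, adjusted p = 0.06). Ifit1 was 4.83 and 5.87 RPKM in the EO771 CAFs, 2.18 and 2.98 in LL2, 26.8 and 28.9 in MC38 and 14.1 and 9.16 in Pan02, with the same order of models and 2.14 ± 0.18 (SE, adjusted p = 7.7e-05) in MC38. Ifit2 was 2.85 and 2.80 RPKM in the EO771 CAFs, 3.23 and 3.72 in LL2, 2.76 and 3.34 in MC38 and 16.04 and 17.9 in Pan02. The Pan02 libraries lay above the other 6, as 20.0% of all genes did, while the MC38 libraries overlapped those of EO771 and LL2. Ifit2 was higher in Pan02 by 2.13 ± 0.12 (SE, adjusted p = 1.1e-05), and its MC38 value against the mean of the others was -0.74 ± 0.12 (SE, adjusted p = 0.0013). That value ran from -0.89 to -0.64 over the other settings tried, with an adjusted p of 0.0057 at most. Ifit2 was also the member least like the rest across the 8 libraries, with r = -0.15 with the mean log2 level of the other 33. The 3 genes lie close together on chromosome 19.

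**Figure D4:**
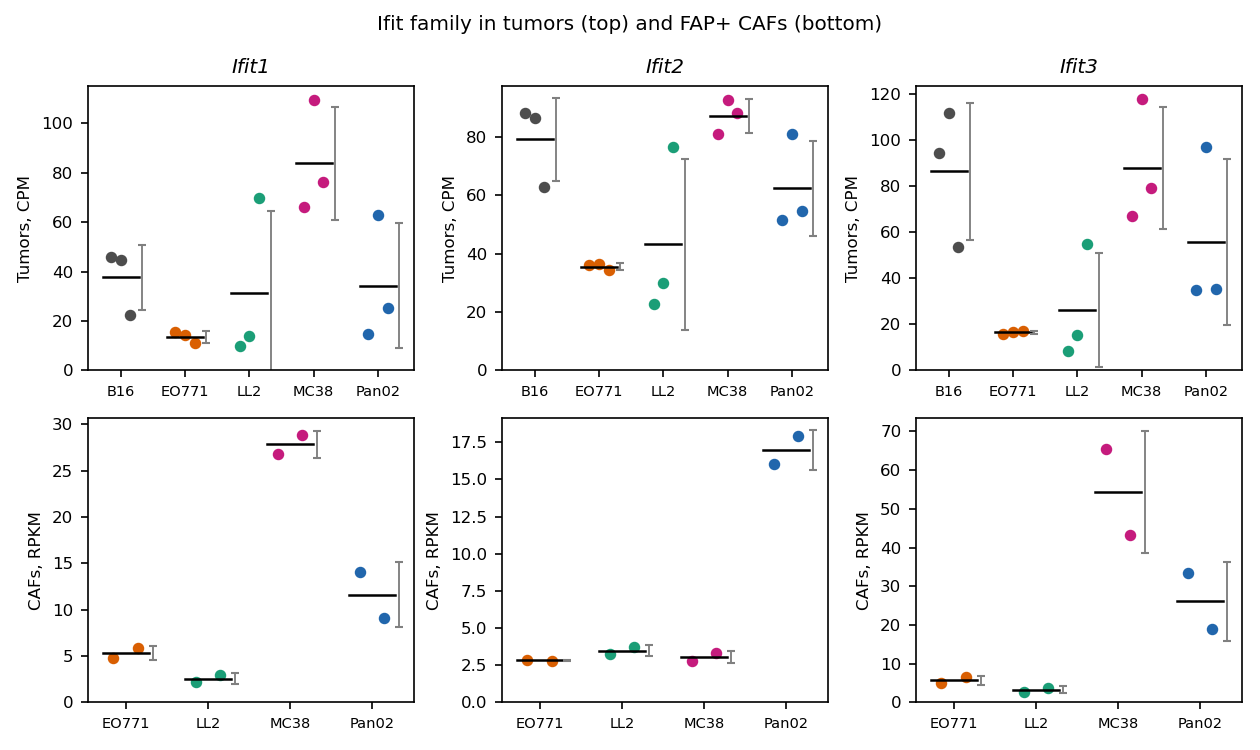
Levels of Ifit1, Ifit2 and Ifit3 in tumors (top, CPM) and CAFs (bottom, RPKM) on linear axes from 0, with points for single libraries, a black line for the mean and a grey bar for ± 1 SD of 3 tumors or 2 CAF libraries. In CAFs the MC38 points are the highest for Ifit1 and Ifit3 and lie with EO771 and LL2 for Ifit2, whose Pan02 points are at 16.04 and 17.9 RPKM.

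The OAS family had the largest median of the role groups in MC38 CAFs too, 3.22, and 5 of 5 were higher. Oas2 was 2.41 and 2.70 RPKM in the EO771 CAFs, 4.47 and 5.34 in LL2, 109 and 167 in MC38 and 7.26 and 4.37 in Pan02. The MC38 mean was 23.8 times that of Pan02, the next model, with a log2 fold change of 4.72 ± 0.21 (SE, adjusted p = 1.1e-05). Oas1a was 6.33 and 6.69 RPKM in the EO771 CAFs, 2.25 and 2.66 in LL2, 48.3 and 40.7 in MC38 and 3.81 and 2.77 in Pan02, at 3.24 ± 0.14 (SE, adjusted p = 8.2e-06). Oas3 was 1.23 and 1.15 RPKM in the EO771 CAFs, 1.18 and 1.32 in LL2, 19.6 and 24.98 in MC38 and 2.23 and 1.94 in Pan02, at 3.22 ± 0.13 (SE, adjusted p = 7.1e-06). Below MC38, Oas1a was second highest in EO771 and Oas2 and Oas3 in Pan02. All 5 were lower in LL2, where Oasl1 had the lowest value, -2.40, and the call of Oas2 was lost without LL2 CAF 1 (adjusted p = 0.052). Isg20 was 39.2 and 38.1 RPKM in the EO771 CAFs, 13.8 and 14.7 in LL2, 45.6 and 28.96 in MC38 and 31.1 and 33.9 in Pan02, so that its distinction in CAFs was a low LL2 level, at -1.27 ± 0.16 (SE, adjusted p = 0.0013). Eif2ak2 stood at 0.83 in MC38 and was not called in any model.

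Among membrane-associated effectors, 6 of 7 were higher in MC38 CAFs. Rsad2 was 3.65 and 3.44 RPKM in the EO771 CAFs, 1.28 and 1.17 in LL2, 49.3 and 64.2 in MC38 and 1.94 and 2.24 in Pan02. It was near the detection filter of 1 RPKM in LL2 and 16.01 times higher in MC38 than in EO771, the next model, at 4.19 ± 0.13 (SE, adjusted p = 3.7e-06). Mx1 was 1.52 and 1.35 RPKM in the EO771 CAFs, 0.366 and 0.702 in LL2, 22.05 and 31.9 in MC38 and 0.979 and 0.856 in Pan02, under 1 RPKM in LL2 and Pan02, at 3.84 ± 0.17 (SE, adjusted p = 9.3e-06) in MC38. Bst2 was 187 and 209 RPKM in the EO771 CAFs, 85.5 and 99.6 in LL2, 1090.2 and 790.5 in MC38 and 109.8 and 101 in Pan02, high in every library beside the other 2 genes, at 2.89 ± 0.16 (SE, adjusted p = 2.1e-05). Ifitm3 was the gene not called, with 1251 and 671 RPKM in the 2 MC38 libraries and 847 to 853 in Pan02.

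Isg15, Usp18, Herc6 and Trim30a were all higher in MC38 CAFs and lower in LL2 CAFs. Isg15 was 35.5 and 38.6 RPKM in the EO771 CAFs, 9.34 and 15.9 in LL2, 492 and 331 in MC38 and 26.05 and 19.8 in Pan02. Its MC38 mean was 32.6 times that of LL2, with 4.15 ± 0.23 (SE, adjusted p = 2.1e-05) in MC38 and -2.43 ± 0.23 (SE, adjusted p = 0.00034) in LL2. Usp18 was 6.96 and 7.05 RPKM in the EO771 CAFs, 3.42 and 3.97 in LL2, 57.3 and 45.9 in MC38 and 5.89 and 3.88 in Pan02, at 3.12 ± 0.16 (SE, adjusted p = 1.7e-05). Trim30a was 3.60 and 3.59 RPKM in the EO771 CAFs, 2.00 and 2.49 in LL2, 13.1 and 18.3 in MC38 and 3.84 and 2.54 in Pan02, at 2.06 ± 0.17 (SE, adjusted p = 8.6e-05). Its LL2 call and that of Herc6 were close to the thresholds, at -1.07 and -1.04, and were lost without LL2 CAF 1 (adjusted p = 0.056 and 0.08) or without MC38 CAF 2 or Pan02 CAF 1.

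Parp14 was 2.52 and 2.49 RPKM in the EO771 CAFs, 4.28 and 4.18 in LL2, 21.4 and 22.9 in MC38 and 14.1 and 8.32 in Pan02. Parp9 was 5.93 and 6.61 RPKM in the EO771 CAFs, 8.05 and 7.95 in LL2, 24.2 and 27.9 in MC38 and 19.8 and 14.5 in Pan02. Dtx3l was 2.79 and 2.64 RPKM in the EO771 CAFs, 4.20 and 4.92 in LL2, 9.53 and 13.9 in MC38 and 12.3 and 9.32 in Pan02. The 3 genes were lowest in EO771, at -1.69 ± 0.18 (SE, adjusted p = 0.00031), -1.17 ± 0.14 (SE, adjusted p = 0.00048) and -1.33 ± 0.17 (SE, adjusted p = 0.00068). Their MC38 values were 1.94 ± 0.18 (SE, adjusted p = 0.00011), 1.35 ± 0.14 (SE, adjusted p = 0.00017) and 1.01 ± 0.17 (SE, adjusted p = 0.0016), and the last fell to 0.76 without MC38 CAF 2 and to 0.95 to 1.00 without EO771 CAF 2, LL2 CAF 1 or Pan02 CAF 2. Pan02 and MC38 CAFs overlapped for Dtx3l. Ifi44 was 1.78 and 1.49 RPKM in the EO771 CAFs, 1.60 and 1.86 in LL2, 34.5 and 42.6 in MC38 and 2.80 and 1.98 in Pan02, at 3.77 ± 0.15 (SE, adjusted p = 6.8e-06). Xaf1 was 4.38 and 3.83 RPKM in the EO771 CAFs, 2.23 and 3.15 in LL2, 33.4 and 30.4 in MC38 and 8.66 and 6.63 in Pan02, at 2.60 ± 0.15 (SE, adjusted p = 2.3e-05). Ifi35 was 23.6 and 27.7 RPKM in the EO771 CAFs, 22.6 and 25.3 in LL2, 111 and 84.1 in MC38 and 28.9 and 22.8 in Pan02, at 1.90 ± 0.15 (SE, adjusted p = 6.7e-05). In all 3 both MC38 libraries lay above the other 6.

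The 2 MC38 CAF libraries differed in fibroblast genes but not in one direction for the members. The sum of 10 fibroblast markers was 6780 and 1561 RPKM in MC38 CAF 1 and 2, and Col1a1 was 2771 and 467 RPKM. Of the 34 members, 21 were higher in MC38 CAF 2 and 13 in MC38 CAF 1, with a median ratio of 1.12 of the second to the first. Without MC38 CAF 1 the number of members higher in MC38 was 31, and without MC38 CAF 2 it was 29. The sum of 8 T and NK cell genes was 0.631 and 0.749 RPKM in these libraries, and Cd8a, Ncr1 and Nkg7 were listed at 0 in both.

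In the pathway lists, the type I interferon genes summed to 0.184 to 3.02 RPKM per CAF library. Of 36 other interferon-stimulated genes 28 were higher in MC38, against 10.9% of all genes. They were led by Oas1g (4.15) and Oas1b (4.04), and Ifi27l2a stood at 3.13. Ifitm1, a close relative of Ifitm3, was lower in EO771, at -2.98 ± 0.16 (SE, adjusted p = 2.4e-05). Genes that start interferon production were higher in MC38 for 3 of the 12 tested, against 10.9% of all genes. These were Mb21d1, Tlr3 (1.56) and Trim25 (1.11), and Mb21d1 was lower in LL2 (-1.52). Irf5 was higher in EO771 (1.04), whose CAF libraries also held the highest leukocyte and macrophage sums. Whether such cells carried Irf5 there was not tested. Of the negative regulators Adar (1.04) and Socs1 (1.02) were higher in MC38. The genes of the interferon gamma list divided between models, with Cxcl10 (2.76) and Nlrc5 (2.02) higher in MC38 and Gbp2 (2.90) and Ciita (2.06) higher in Pan02. Gbp2 was 11.5 and 11.2 RPKM in the EO771 CAFs, 11.8 and 11.7 in LL2, 31.8 and 31.2 in MC38 and 171 and 95.3 in Pan02, and its Pan02 libraries lay above all others, as those of Ifit2 did.

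Tumors and CAFs of the 4 shared models were set side by side by refitting the tumors without B16, so that each model was compared with the mean of the same 3 others. This fit was chosen after the data had been seen. The median of the 34 members in MC38 was 2.11 in tumors and 2.5 in CAFs, and 30 were called higher in both. In EO771 the medians were -1.31 and -0.80, with 18 members lower in tumors and 10 in CAFs. In Pan02 they were -0.63 and -0.28, with 11 and 8 lower. In LL2 they were -0.32 and -1.30, with 24 members lower in CAFs, and the 3 LL2 tumors were those spread by tumor 3. The tables were normalized separately, so the difference between tumors and CAFs was not tested.

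Levels per length were set side by side as a description, as RPKM computed for tumors from CPM and transcript length and as deposited for CAFs. In MC38, Isg15 was 291 RPKM in tumors and 411 in CAFs, Bst2 1147 and 940.4, and Stat2 43.5 and 98.1. Ifit2 was 22.1 and 3.05 RPKM. Each of these 4 genes was taken from the same transcript in both tables. In Pan02, Ifit2 was 15.8 RPKM in tumors and 16.99 in CAFs. On this scale Ifitm3 and Bst2 were the most abundant members in both materials, and Mx2 was the least abundant in tumors of every model.

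**Figure D5:**
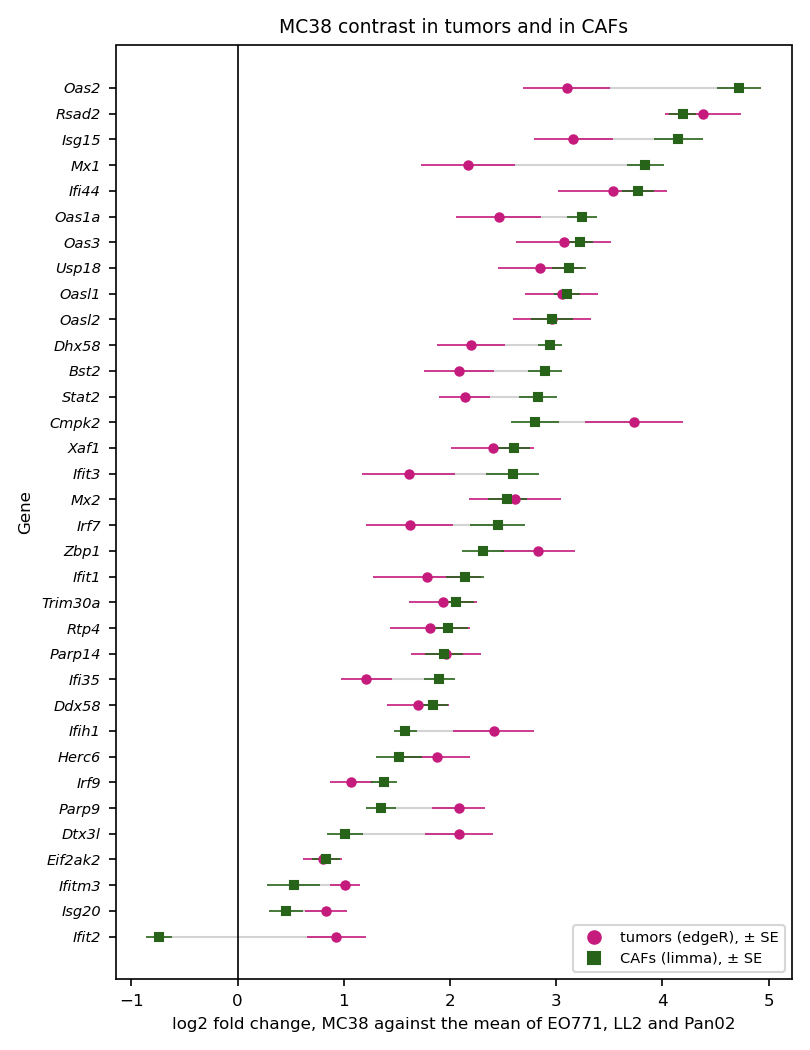
Log2 fold change of each member in MC38 against the mean of EO771, LL2 and Pan02, in tumors (circles, edgeR, B16 left out) and in CAFs (squares, limma on log2(RPKM + 1)), with bars of ± 1 SE and genes ordered by the CAF value. All members but Ifit2 lie right of 0 in both, and Ifit2 is at 0.93 in tumors and -0.74 in CAFs.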

How the data were processed

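RNA of 15 tumors and 8 CAF libraries was sequenced from unstranded poly(A)-selected libraries. Per the submitters' processing notes, the authors aligned reads to mm10 with STAR 2.5.0c and quantified transcripts with HOMER, and DESeq2 is also listed. The deposited tumor values are estimated counts per transcript, which the authors left in steps of 0.5 without normalization, and they were rounded to whole counts here. The deposited CAF values are RPKM, which the authors scaled to library size and transcript length. Low CAF values fell on steps of 0.5 read. Groups came from the cell line and cell type labels. Another 5 columns matched no sample used here and were left out. Where a symbol had several transcripts, that with the largest mean was used.

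For tumors, edgeR 4.0.16 (R 4.3.3) fitted all 15 libraries with TMM scaling, its default expression filter and the quasi-likelihood F-test, with a contrast of a model to the mean of the 4 others. The SE is the log2 fold change over the square root of F. For CAFs, limma 3.58.1 was fitted to log2(RPKM + 1) with an intensity trend over genes of at least 1 RPKM in 2 libraries, with the same contrast to the 3 others. P-values were Benjamini-Hochberg adjusted over all genes of a table. The call rule was a log2 fold change of 1 or more either way with adjusted p below 0.05. Alternatives were other scaling, filters, transcripts and pseudocount (0.1 for 1), DESeq2 1.42.0, edgeR on reads recovered from RPKM, adjusted p alone, a replicate block and each library left out. Both fits were tested on simulated data. Python 3.11.15 and matplotlib 3.10.9 were used for tables and figures.

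The 34 members and all gene lists were chosen with earlier results of these data known. Values per library were given for at most 3 called members per role group and table, those with the largest absolute log2 fold change, and up to 4 called genes per other list were named in the same way. Ifitm3, Herc6, Gbp2 and Ciita in Pan02 tumors, Gbp2 per library in CAFs, and the genes restricted to MC38 or Pan02 tumors were named after their values were seen. Exons of 11 members overlap another annotated gene, with 1.5% to 26.6% of their bases. Trim30a and Ifitm3 also have near-identical relatives, so reads could be split among them.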

Additional observations from a re-analysis of the deposited data

Results flagged for a closer look

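For 3 genes every tumor and every CAF library of 1 model lay on opposite sides of the mean of the other 3 models on the log2 scale. The tumor values are edgeR log2 fold changes without B16 and the CAF values are limma log2 fold changes of log2(RPKM + 1). The difference between tumors and CAFs was not tested for any of them, since the tables were normalized separately. Ifit2 in MC38 was 0.93 in tumors and -0.74 in CAFs. Eif2ak2 in Pan02 was -0.31 in tumors and 0.32 in CAFs. Ifitm3 in LL2 was 0.59 in tumors and -0.12 in CAFs. For Ifit2 the MC38 CAF libraries, at 2.76 and 3.34 RPKM, lay among those of EO771 and LL2 and below those of Pan02. The values of all 3 genes were under a log2 fold change of 1 in size.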

How the results depend on the processing

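No called value changed sign under any alternative run. Of the called member values 49 of 73 in tumors and 63 of 74 in CAFs were called under every one. Leaving out 1 library, members higher in MC38 numbered 27 to 31 in tumors and 29 to 31 in CAFs, members lower in LL2 CAFs 20 to 25 and members lower in EO771 CAFs 9 to 12. In tumors the counts moved more: members lower in B16 were 1 to 3 (1 without B16 tumor 3), members lower in EO771 12 to 24 (13 and 12 without EO771 tumor 2 and 3), members lower in Pan02 6 to 14 (6 without Pan02 tumor 1), members higher in B16 4 to 9 and members higher in LL2 0 to 1 (1 without LL2 tumor 1). Members lower in LL2 were 0 to 21, with 0 by edgeR without LL2 tumor 1 or 2 (1 and 2 members at an unadjusted p under 0.05), 1 without B16 tumor 1 or 2, any EO771 tumor, MC38 tumor 1 or 2 or Pan02 tumor 2, and 21 without LL2 tumor 3. In CAFs members higher in Pan02 were 1 to 4 (1 without Pan02 CAF 1, 4 without Pan02 CAF 2). Of the other pathway genes in tumors, those lower in B16 were 7 to 12, lower in EO771 17 to 30, higher in LL2 1 to 4, lower in LL2 2 to 24, higher in Pan02 2 to 10 and lower in Pan02 4 to 8, with the extremes without 1 tumor of that model in most cases. In CAFs they were higher in EO771 1 to 2, lower in MC38 0 to 3 and lower in Pan02 5 to 10. The cause of these moves was not tested.

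With LL2 tumor 3 and Pan02 tumor 2 left out together, an alternative chosen after seeing the data, 20 members and 20 pathway genes were lower in LL2 and 3 pathway genes higher in Pan02. With B16 tumors left out, also chosen after seeing the data, members lower in LL2 by edgeR numbered 0, with 5 at an unadjusted p under 0.05, and pathway genes higher and lower in LL2 numbered 1 and 2. DESeq2 called 4 members lower in LL2. On adjusted p alone, tumors had 21 pathway genes higher and 19 lower in B16, 1 member and 5 pathway genes higher in EO771, 1 member and 10 pathway genes higher and 10 pathway genes lower in LL2, 6 pathway genes lower in MC38, and 2 members and 14 pathway genes higher and 11 pathway genes lower in Pan02. On the same rule CAFs had 2 members higher and 25 lower and 5 pathway genes higher and 36 lower in EO771, 4 pathway genes higher and 32 lower in LL2, 1 member and 9 pathway genes lower in MC38, and 7 members higher and 15 lower and 17 pathway genes higher and 20 lower in Pan02. The edgeR test on reads recovered from RPKM called 4 pathway genes higher in EO771 CAFs, 1 higher in LL2 and 1 lower in MC38, and a pseudocount of 0.1 gave 1 lower in MC38.

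Replicate numbers were not used as pairs in the main fits. The correlation of deviations between same-numbered libraries was -0.175 to 0.246 over 30 pairs of tumors, with 5 above 0.1. Over 6 pairs of CAF models it was -0.143 to 0.277, with 3 above 0.1, and these values are the same for both replicate numbers. No reference value was set for these correlations, so they cannot exclude a pairing. With the replicate block, 30 members were higher in MC38 tumors, 19 lower in EO771 tumors and 30 higher in MC38 CAFs. Depth limits the interferon genes themselves, and the smallest groups, of 2 CAF libraries, limit the spread that could be estimated.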
